A study of Mus musculus with 6 samples.

Results

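Lsd1 peaks of wild-type C2C12 cells in myogenic medium were compared genome-wide with those of C2C12 cells overexpressing LSD1, named LSD1(OE), in adipogenic medium. All deposited peaks of these libraries were taken, 43426 from the myogenic and 33533 from the LSD1(OE) library, which is 76959 of the 95852 peaks of the 3 conditions studied. The study asked where the lysine demethylase Lsd1 binds chromatin as C2C12 myoblasts enter either lineage, and measured it by ChIP-seq, the sequencing of DNA that is pulled down with an antibody, here against the C-terminus of Lsd1. Each condition has 1 ChIP library, called against its own input library, so nothing below carries a replicate error and no test of the conditions is possible.

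C2C12 is a mouse myoblast line that fuses into myotubes when serum is withdrawn and can be diverted towards adipocytes by hormonal induction. All cells were at passages 3 to 5, were harvested on day 1 of differentiation and were fixed for 6 min in 1% PFA. Wild-type cells received 2% horse serum. The LSD1(OE) cells received 10% FCS with a cocktail of the phosphodiesterase inhibitor isobutylmethylxanthine (0.5 mM), the glucocorticoid dexamethasone (5 μM), the PPARγ agonist rosiglitazone (1 μM), insulin (850 nM), indomethacin (125 nM) and thyroid hormone T3 (1 nM). They are a stably transduced, drug-selected line in which Flag-tagged LSD1 is switched on by doxycycline, an agent not listed for the wild-type cells. Medium, line, doxycycline and LSD1 level therefore all differ between these libraries and cannot be told apart. Where it helps, the third library, of wild-type cells in adipogenic medium with 18893 peaks, is given beside them.

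Lsd1, encoded by Kdm1a, removes methyl groups from lysine 4 of histone H3 and acts mostly within the CoREST complex together with histone deacetylases. It has no sequence preference of its own and is brought to promoters and enhancers by transcription factors and corepressors. In muscle it is known as a cofactor of MyoD-driven differentiation, and in fat cells as a cofactor of the C/EBP and PPAR programmes.

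The first sequences shown are stretches of 101 bp around summits of distal peaks that only 1 library had, chosen because they hold a motif. A search for 20 short motifs is described below. It found the C/EBP letters TTGCNNAA in 10.8% of distal windows private to LSD1(OE) and 7.58% of those private to the myogenic library. In LSD1(OE) they were more frequent the closer the score came to the top of the list. The following 4 are the highest-scoring of those peaks with the C/EBP letters, set in capitals in either orientation, on an autosome, outside exons and outside annotated repeats for the most part. In the mm10 genome (GRCm38, plus strand) they lie at chr15:85232309-85232409 in an intron 25656 bp downstream of the TSS of Fbln1, which encodes the matrix protein fibulin 1, at chr4:11672883-11672983 between genes with Gem as the nearest, at chr2:32419473-32419573 in an intron 4714 bp downstream of the TSS of Slc25a25, a mitochondrial carrier gene, and at chr12:116119048-116119148 in an intron near Vipr2, a receptor gene.
Fbln1 site: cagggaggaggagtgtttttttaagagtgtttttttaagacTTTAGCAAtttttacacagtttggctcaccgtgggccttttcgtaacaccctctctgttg
Gem site: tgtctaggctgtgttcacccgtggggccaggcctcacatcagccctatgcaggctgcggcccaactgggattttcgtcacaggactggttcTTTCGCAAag
Slc25a25 site: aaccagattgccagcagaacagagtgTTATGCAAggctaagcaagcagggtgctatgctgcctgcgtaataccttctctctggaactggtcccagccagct
Vipr2 site: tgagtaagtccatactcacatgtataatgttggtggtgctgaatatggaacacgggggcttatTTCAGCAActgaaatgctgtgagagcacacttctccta

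The peaks at Fbln1 (407 tags), Gem (170 tags), Slc25a25 (166 tags) and Vipr2 (259 tags) had scores of 1600, 760, 665 and 655. The first 3 overlapped a peak of wild-type cells in adipogenic medium and the Vipr2 peak did not.

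For the myogenic library, the stretches shown are the corresponding highest-scoring private distal peaks with the E-box CAGCTG, the letters preferred by MyoD and its relatives, in capitals. They lie on the plus strand at chr4:109440017-109440117, chr15:23452150-23452250, chr8:85327491-85327591 and chr7:145219632-145219732, and each name is that of the gene with the nearest TSS. All 4 fall in annotated introns.
Ttc39a site: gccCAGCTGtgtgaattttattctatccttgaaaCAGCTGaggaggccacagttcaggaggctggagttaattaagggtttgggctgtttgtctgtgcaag
Cdh18 site: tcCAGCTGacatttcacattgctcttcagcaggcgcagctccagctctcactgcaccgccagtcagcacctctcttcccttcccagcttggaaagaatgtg
Orc6 site: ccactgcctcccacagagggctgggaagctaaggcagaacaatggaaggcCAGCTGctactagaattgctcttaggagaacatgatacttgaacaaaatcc
Smim38 site: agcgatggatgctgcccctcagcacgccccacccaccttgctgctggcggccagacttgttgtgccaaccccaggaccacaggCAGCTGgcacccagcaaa

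Their peaks held 176 (Ttc39a), 142 (Cdh18), 279 (Orc6) and 172 tags (Smim38), with scores of 965, 952, 912 and 767. The Cdh18 and Orc6 peaks also overlapped a peak of wild-type cells in adipogenic medium. The E-box was not particular to this class, and sites with peaks in both libraries held it more often. Examples of such common sites, both with the E-box and the AP-1 letters TGANTCA in capitals, lie between genes near Timp2 at chr11:118365281-118365381 and in an intron near Rptoros at chr11:119796588-119796688. Their myogenic peaks had 444 and 271 tags and scores of 2030 and 1230, and both also overlapped a wild-type adipogenic peak.
Timp2 site: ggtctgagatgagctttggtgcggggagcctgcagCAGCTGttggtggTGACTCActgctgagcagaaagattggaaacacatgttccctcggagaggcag
Rptoros site: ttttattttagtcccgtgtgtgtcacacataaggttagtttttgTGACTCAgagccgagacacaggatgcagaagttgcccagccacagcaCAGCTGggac

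The myogenic library held 46155625 ChIP tags after duplicate filtering and the LSD1(OE) library 55193310, so the library with fewer peaks was the deeper. Peaks covered 49.0 Mb of the genome in the myogenic and 39.7 Mb in the LSD1(OE) library and held 7.12% and 5.28% of the ChIP tags. The weakest peak contained 27 and 30 tags. A region without a peak may thus hold Lsd1 below that level, and a private peak is a peak that was not called in the other library, not a measured absence. The scores of the libraries (10 times −log10 of the peak p-value) depend on each library's depth and input and are not on a common scale. They rank peaks within a library and set thresholds and strength classes, but were not compared as levels, so that equal score classes of the libraries need not hold equal binding. Of 32 marker genes of unrelated lineages, such as keratinocytes and hepatocytes, 2 had a promoter peak in the myogenic library (Krt14 and Cdh1) and 1 in LSD1(OE) (Apoa1). Over all annotated genes the shares with a promoter peak were 40.5% and 32.3%.

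Lsd1 peaks of the libraries overlapped for the most part only where they were strong. An LSD1(OE) peak overlapped 20185 myogenic peaks by at least 1 bp, which is 46.5% (95% Wilson interval 46.0 to 47.0%, counting error only), and 23241 were private. In the other direction, 20058 LSD1(OE) peaks or 59.8% (59.3 to 60.3%) shared at least 1 bp with a myogenic peak, and 13475 were private. In the lowest score class, from 50 to 60, the overlap was 17.3% of the myogenic and 28.6% of the LSD1(OE) peaks. It rose with every class, to 94.6% and 96.9% of peaks with a score of 500 or more. Among these strongest peaks, 4848 of 5123 myogenic and 3202 of 3305 LSD1(OE) peaks had a counterpart.

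**Figure D1:**
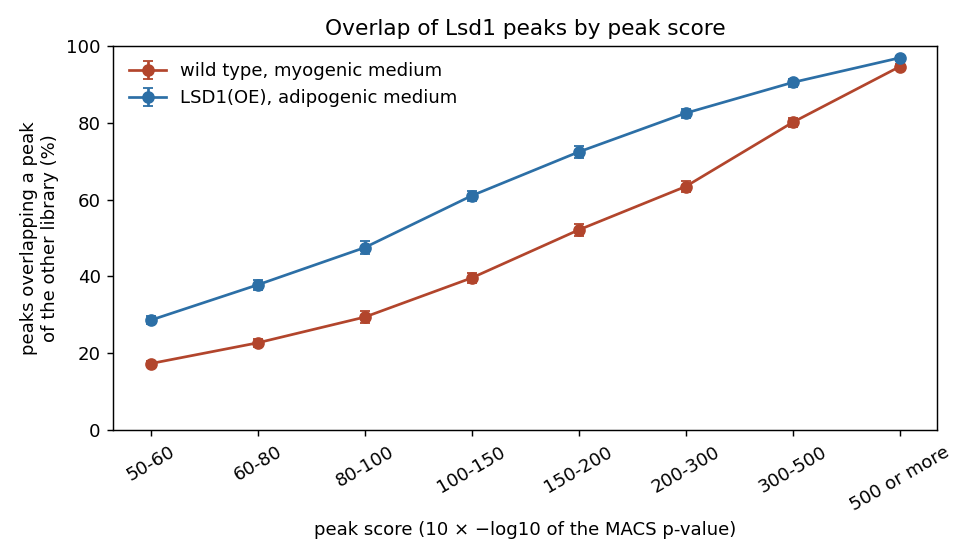
Share of Lsd1 peaks that overlap a peak of the other library (%, y axis) by class of peak score (x axis), for the myogenic library (red) and the LSD1(OE) library (blue), with 95% Wilson intervals. Both curves climb from 17.3% and 28.6% in the lowest class to 94.6% and 96.9% in the highest, and the LSD1(OE) curve lies above the myogenic curve in every class.

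With the 33533 highest-scoring peaks of each library, which removed the myogenic peaks with a score under 62.54, the overlap became nearly symmetrical. It was 54.9% (54.4 to 55.4%) for the myogenic library, while LSD1(OE) had 55.6% (55.1 to 56.1%). The unequal overlap of the full lists thus went with their unequal length. Merged into regions, the full lists gave 55454, of which 18738 held peaks of both libraries, 16605 of them exactly 1 of each. In 847 regions a single myogenic peak faced several LSD1(OE) peaks, and in 930 the reverse held. Private peaks were often close to the other library's peaks. The nearest was centred within 5000 bp for 32.9% of private myogenic and 42.3% of private LSD1(OE) peaks.

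Private promoter peaks were mainly myogenic. A peak counted as a promoter peak when its centre lay within 2000 bp of the nearest TSS of a curated RefSeq transcript, and as distal otherwise. The shares of promoter peaks were alike in the full lists, 28.7% in the myogenic (28.3 to 29.2%) and 29.1% in the LSD1(OE) library (28.6 to 29.5%), and likewise in the peaks common to both, 41.3% and 41.9%. Between lists of equal length they were not alike, at 33.5% (33.0 to 34.0%) and 29.1% of all peaks. Among private peaks of the full lists the promoter share was 17.8% (17.3 to 18.3%), or 4141 peaks, in the myogenic library, but 9.86% (9.37 to 10.4%), or 1329 peaks, in LSD1(OE). At equal numbers 3244 private promoter peaks were myogenic and 1566 were from LSD1(OE), while private distal peaks were 11874 and 13326. The excess of private promoter peaks in the myogenic library was therefore present also between lists of equal length, and the order was turned around for distal peaks, where the full lists gave 19100 myogenic and 12146 LSD1(OE) peaks.

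Private promoter peaks also differed in kind. Their centres lay at a median of 244 bp from the TSS in the myogenic library and 730 bp in LSD1(OE), compared with 191 and 209 bp for the promoter peaks common to both. The 200 bp around their summits had a mean GC content of 58.0% and 10.8 CpGs in the myogenic library, and 54.9% and 7.14 CpGs in LSD1(OE). Common promoter peaks had 64.0% and 15.8 CpGs in the myogenic library, and 63.2% and 15.0 in LSD1(OE). In 200 bp around the summit, the GC box GGGCGG was present in 30.3% of the myogenic (28.9 to 31.7%) and 20.2% of the LSD1(OE) private promoter peaks (18.1 to 22.4%), and the ETS letters CCGGAAG in 8.72% (7.90 to 9.62%) and 3.09% (2.28 to 4.16%). Over all 76959 peaks, these letters were found in 16.3% and 3.01% of windows, and in windows of the same length 2000 bp to either side in 4.14% and 0.960%. Private LSD1(OE) promoter peaks therefore lay farther from the TSS and in sequence with fewer CpGs.

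Away from promoters, private peaks lay in introns and between genes in similar parts. Of all private myogenic peaks, 39.7% were centred in introns and 39.8% between genes, and of private LSD1(OE) peaks 42.0% and 45.4%. Among distal private peaks, those more than 50000 bp from the nearest TSS made up 29.7% (29.1 to 30.4%) in the myogenic library, and LSD1(OE) had 32.5% (31.7 to 33.3%). Few private peaks matched those of wild-type cells in adipogenic medium, which the LSD1(OE) cells shared the medium with. An overlap was found for 11.1% of private distal myogenic (10.7 to 11.6%) and 12.4% of private distal LSD1(OE) peaks (11.8 to 13.0%), and at promoters for 17.8% (16.6 to 19.0%) and 12.9% (11.2 to 14.8%). Peaks common to the myogenic and LSD1(OE) libraries overlapped a wild-type adipogenic peak in 67.3% and 66.8% at promoters and in 58.3% at distal sites by either count.

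The strongest private promoter peaks of the myogenic library were at genes of diverse function. They were found at Gm9920 (386 tags, score 1410), Anp32b, a histone chaperone gene (318 tags, 1390), the long noncoding RNA gene Pvt1 (327 tags, 1030), Kmt2d, which encodes an H3K4 methyltransferase (190 tags, 1010), Acap2 (192 tags, 917), Kdelr2, which encodes a retrieval receptor of the endoplasmic reticulum (183 tags, 840), Chid1 (183 tags, 819) and the kinase gene Braf (181 tags, 808). Of these 8, all but Anp32b also overlapped a wild-type adipogenic peak. Those of LSD1(OE) with the highest scores were found at Orm2, an acute-phase protein gene (317 tags, 1010), Gramd1b, a sterol transfer gene (178 tags, 685), 2010003K11Rik (164 tags, 658), 1700060C20Rik (212 tags, 647), Galnt9 (178 tags, 585), the cholesterol exporter gene Abcg1 (157 tags, 569), the relaxin receptor gene Rxfp3 (181 tags, 565) and Dock10 (212 tags, 531). Of these, Orm2, 1700060C20Rik and Galnt9 overlapped a wild-type adipogenic peak. The nearest myogenic peak was centred 5999 bp from the Orm2 peak, 134524 bp from the Gramd1b peak and 26464 bp from the Abcg1 peak.

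The 5 strongest private distal peaks of LSD1(OE) were nearest to Ksr1 (520 tags, score 2620), Fbln1 (407 tags, 1600), Jade2 (256 tags, 1150), Gm10248 (219 tags, 1130) and the ferritin gene Fth1 (307 tags, 1130). All 5 overlapped a wild-type adipogenic peak. Strong private distal peaks of the myogenic library were nearest to Hoxc10 (414 tags, 1320), Gabbr2 (268 tags, 1170), Adgrd1 (283 tags, 1160) and Cacnb3 (297 tags, 1120), and these 4 overlapped a wild-type adipogenic peak. The strongest private peaks thus mostly had a counterpart in the third library, although at most 17.8% of the peaks of any private class did.

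Lsd1 promoter occupancy covered fewer genes in LSD1(OE). Of 26180 annotated genes, 10601 (40.5%) had a promoter peak in the myogenic library and 8451 (32.3%) in LSD1(OE), 7374 (28.2%) had a promoter peak in both, 3227 (12.3%) in the myogenic library only and 1077 (4.11%) in LSD1(OE) only. At equal numbers, 2763 genes were myogenic only and 1290 LSD1(OE) only. Because each peak goes to a single gene, some of these genes were not without signal, as an LSD1(OE) peak reached into the promoter window of 505 of the myogenic-only genes, and a myogenic peak into that of 413 of the LSD1(OE)-only genes. A wild-type adipogenic promoter peak was present at 20.0% of the myogenic-only, 20.6% of the LSD1(OE)-only and 67.5% of the genes with both.

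Genes of the contractile apparatus had promoter peaks mostly in the myogenic library. Of 42 sarcomere and contractile genes, 24 (57.1%) had a promoter peak in the myogenic library, against 40.5% of all genes, and 8 (19.0%) in LSD1(OE), against 32.3% of all genes. The 8 (Actn3, Mylpf, Mybph, Tpm1, Tpm2, Tpm3, Cryab and Des) were all among the 24, and 16 of the 42 genes were myogenic only, against 12.3% of all genes. No gene of the list was LSD1(OE) only, against 4.11% of all genes. Wild-type cells in adipogenic medium also had promoter peaks at 8 of them. At equal numbers the counts were 20 and 8, against 37.9% and 32.3% of all genes. With a score of at least 100 they were 16 and 8. Under that limit 5629 of all 26180 genes had a promoter peak in both libraries, 3360 in the myogenic library only and 847 in LSD1(OE) only. The contractile genes thus stood nearer to all genes in both libraries than with the full lists. The list holds 7 genes that the study itself chose on these samples (Tnnc1, Tnnt3, Myl1, Myh1, Myh3, Mb and Ttn), which are no independent evidence of a direction, and all 7 were myogenic only. Without them the counts were 17 (48.6%) and 8 (22.9%) of 35, with 9 myogenic only. Of all 12 genes that the study examined in these libraries, 11 and 5 had a promoter peak.

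The myogenic-only contractile genes were Tnnc2 (161 tags, score 528) and Tnni2 (105 tags, 300), which encode troponin subunits of fast fibres, Mb, which encodes myoglobin (134 tags, 278), Tnnt2 (90 tags, 233), Nebl (88 tags, 231), the actin nucleator gene Lmod3 (69 tags, 227), the embryonic myosin gene Myh3 (69 tags, 222), the titin gene Ttn (72 tags, 128), Tnnt1 (46 tags, 93.3), Myl1 (34 tags, 65.4), Tnnc1 (28 tags, 64.8), Myl4 (31 tags, 64.3), Tnnt3 (32 tags, 59.9), Myom2 (30 tags, 56.1), Acta1 (29 tags, 53.8) and Myh1 (30 tags, 51.9). The first 8 of these peaks had scores above 100 and the other 8 had scores below it, so the list joins clear and marginal peaks. The nearest LSD1(OE) peak was centred between 1228 bp (Tnnc1, where it was assigned to a gene with a nearer TSS) and 147537 bp (Myh1) from the TSS. The 4 myogenic-only genes Myh1, Acta1, Myom2 and Tnnt3 had the weakest peaks and were lost at equal numbers, which kept 12 of the 16.

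Promoters are shown for Tnnc2, Mb and Tnnt2, as the 250 bp upstream of the TSS given by RefSeq for GRCm38.p6, because they carried some of the stronger myogenic-only peaks of the list. They lie at chr2:164779735-164779984 (minus strand), chr15:77022788-77023037 (minus strand) and chr1:135836084-135836333 (plus strand). The E-box CAGCTG and the MEF2 letters CTANNNNTA, searched on both strands, are in capitals.
Tnnc2 promoter: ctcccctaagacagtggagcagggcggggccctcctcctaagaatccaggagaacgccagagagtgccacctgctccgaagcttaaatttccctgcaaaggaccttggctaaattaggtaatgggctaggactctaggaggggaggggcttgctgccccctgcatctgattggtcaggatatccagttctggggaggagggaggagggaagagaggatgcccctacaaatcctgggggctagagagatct
Mb promoter: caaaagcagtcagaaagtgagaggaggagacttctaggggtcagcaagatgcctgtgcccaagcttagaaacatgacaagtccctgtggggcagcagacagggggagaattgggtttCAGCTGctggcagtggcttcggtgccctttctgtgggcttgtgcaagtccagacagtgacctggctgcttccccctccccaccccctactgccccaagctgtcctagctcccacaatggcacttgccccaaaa
Tnnt2 promoter: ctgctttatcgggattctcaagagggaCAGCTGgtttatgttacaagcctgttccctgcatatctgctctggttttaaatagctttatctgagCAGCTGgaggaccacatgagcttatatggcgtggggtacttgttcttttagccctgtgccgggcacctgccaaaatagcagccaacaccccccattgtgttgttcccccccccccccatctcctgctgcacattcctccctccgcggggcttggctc

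The E-box was found at 1 position of the Mb and 2 positions of the Tnnt2 stretch, and neither motif in that of Tnnc2. In 32851 RefSeq promoters of this length, 13.0% held the E-box and 19.0% the MEF2 letters, so that the matches in Mb and Tnnt2 are descriptions of single sequences. The peaks were centred 61 bp upstream (Mb), 29 bp downstream (Tnnc2) and 476 bp upstream (Tnnt2) of the TSS.

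**Figure D2:**
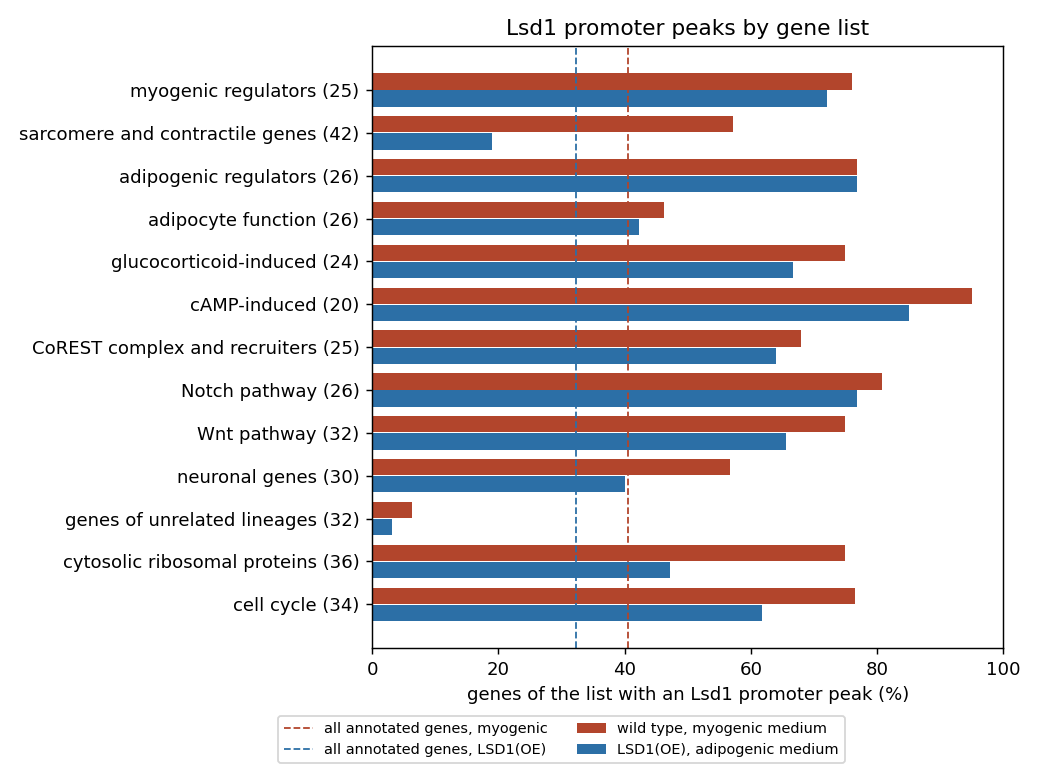
Share of the genes of each list with an Lsd1 promoter peak (%, x axis) in the myogenic library (red bars) and in LSD1(OE) (blue bars), with the number of genes per list in brackets and the share among all annotated genes as dashed lines (40.5% and 32.3%). Sarcomere and contractile genes stood at 57.1% against 19.0% (48.6% against 22.9% without the genes the study chose on these samples), ribosomal protein genes at 75.0% against 47.2%, and adipogenic regulators at 76.9% in both.

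Genes that regulate myogenesis, in contrast, mostly had promoter peaks in both libraries. Of 25 myogenic regulators, 19 (76.0%, against 40.5% of all genes) had one in the myogenic library and 18 (72.0%, against 32.3%) in LSD1(OE). Both libraries had one at 17 of the 25, against 28.2% of all genes. Over all genes, 12.3% were myogenic only and 4.11% LSD1(OE) only. Myod1 (42 tags, score 106) and Six4 (43 tags, 89.3), which encode early regulators, were myogenic only, and Mef2b (47 tags, 66.2) was LSD1(OE) only. These were weak peaks, at percentiles 22.9 (Myod1), 19.0 (Six4) and 14.0 (Mef2b) of the scores of their library's promoter peaks. The highest score of the list belonged to Mef2d in the myogenic library (436 tags, score 1810) and to Id2, an inhibitor of E-box binding factors, in LSD1(OE) (454 tags, score 2240).

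Between libraries, peaks were compared by density, the tags per kb of called length and per 1000000 filtered ChIP tags, taking the strongest promoter peak of each gene in each library. Scaled instead to the tags inside peaks, every log2 difference below would be 0.43 higher, and the smaller negative differences would change sign. At Id2 the densities were 1.53 in the myogenic library and 2.08 in LSD1(OE), a log2 difference of 0.44 (counting interval 0.14 to 0.75), and at Myog, the late regulator myogenin, they were 1.35 and 0.995 (-0.44, -1.08 to 0.18), on 64 and 34 tags. Of the 17 regulators with both peaks, 14 were less dense in LSD1(OE), 7 with an interval below 0, and Id2 was the only one with an interval above 0. Their median of -0.25 lay near the -0.29 of all promoter sites, so myogenic regulators did not depart as a list.

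Adipogenic regulators had promoter peaks in equal number, 20 of 26 (76.9%) in each library, against 40.5% and 32.3% of all genes. Both libraries had one at 19, against 28.2% of all genes. Ppargc1a, the coactivator gene of brown fat and mitochondrial programmes (38 tags, score 92.4), was myogenic only and Ppara (41 tags, 53.5) LSD1(OE) only, and wild-type cells in adipogenic medium had 11. Cebpb, a factor induced first in adipogenesis, showed the largest rise in density within the list. Its myogenic peak had 28 tags over 600 bp with a score of 50.4, at the lower limit of calling, and its LSD1(OE) peak had 371 tags over 4109 bp with a score of 1480, the highest of the list, and the densities were 1.01 and 1.64 (log2 0.69, 0.14 to 1.30). Cebpd went the other way, from 224 tags and a density of 2.19 to 137 tags and 1.27 (-0.79, -1.11 to -0.48), as did Rxra, the partner of PPARs, from 1.68 to 0.957 (-0.81, -1.37 to -0.27). At Cebpa the densities were 1.59 and 1.36. At Pparg, the master regulator of fat cells, they were 1.48 on 100 tags and 1.05 on 39 tags.

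Genes of adipocyte function had promoter peaks at 12 (46.2%) and 11 (42.3%) of 26, close to the shares of all genes, with Plin4 and Dio2 myogenic only and Elovl3 LSD1(OE) only. Dgat1, which encodes an enzyme of triglyceride synthesis, had the highest score of this list in the myogenic library and fell within the 5 promoter sites with the largest decrease, from 226 tags and a density of 3.28 to 158 tags and 1.61 (log2 -1.02, -1.33 to -0.72). Pnpla2, the triglyceride lipase gene, led in LSD1(OE) with 230 tags, and its densities of 2.18 and 2.04 differed little. Most classical markers of the mature fat cell, Fabp4, Adipoq, Cd36, Cidea and Ucp1 among them, had no promoter peak in either library.

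Genes that respond to components of the adipogenic cocktail were occupied in both libraries. Of 24 glucocorticoid-induced genes, 18 (75.0%, against 40.5% of all genes) had a promoter peak in the myogenic library and 16 (66.7%, against 32.3%) in LSD1(OE). Errfi1 and Cry2 were myogenic only, although an LSD1(OE) peak assigned to another TSS was centred 106 bp from that of Errfi1. The clock gene Per2 rose in density from 1.63 to 2.15 (log2 0.39, 0.13 to 0.67), whereas the metallothionein gene Mt1 fell from 2.00 to 1.29 (-0.63, -0.97 to -0.29). Of 20 cAMP-induced genes, 19 and 17 had a promoter peak, with Pde3b and Sik2 myogenic only, although an LSD1(OE) peak was centred 390 bp from the TSS of Pde3b. The immediate early genes Junb, with the highest score of the list in the myogenic library, and Ier2 were less dense in LSD1(OE), at 2.43 against 1.35 for Junb (-0.85, -1.01 to -0.68) and 2.23 against 1.47 for Ier2 (-0.61, -0.84 to -0.37). They were the lowest of the 17 cAMP-induced genes with both peaks, whose median log2 difference was -0.10, beside -0.29 at all promoter sites.

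Many genes of the CoREST complex and of its recruiters had promoter peaks in both libraries, and the share that was myogenic only was near that of all genes. Of 25 genes of the CoREST complex and of factors that recruit it, 17 (68.0%, against 40.5% of all genes) had a promoter peak in the myogenic library. In LSD1(OE) 16 (64.0%, against 32.3%) had one, and 14 had one in both, against 28.2% of all genes. Kdm1a itself (123 tags, score 310), the scaffold gene Rcor1 (152 tags, 541) and the corepressor gene Ctbp2 (61 tags, 145) were myogenic only. These were 3 of the 25 genes, near the 12.3% of all genes. LSD1(OE) only were 2 of the 25, against 4.11% of all genes. Rcor3 (60 tags, 113) was LSD1(OE) only, but a myogenic peak was centred 644 bp from its TSS and had been assigned to a neighbouring gene. Phf21a, which encodes the histone reader BHC80, and Gse1 were denser in LSD1(OE), at 2.54 against 3.41 for Phf21a (log2 0.42, 0.19 to 0.66) and 2.13 against 2.67 for Gse1 (0.33, 0.17 to 0.48), while the deacetylase genes Hdac1 (-0.66, -1.20 to -0.14) and Hdac2 (-0.53, -0.98 to -0.09) were less dense.

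Among signalling pathways, Notch genes had promoter peaks at 21 (80.8%) and 20 (76.9%) of 26, with Notch4 and Numb myogenic only and Dll4 LSD1(OE) only. Wnt genes had them at 24 (75.0%) and 21 (65.6%) of 32, with Wnt3a, Wnt11, Axin2 and Tcf7l2 myogenic only and Tcf7 LSD1(OE) only. Over all genes the shares were 40.5% and 32.3%. Peaks of the other library, assigned to another TSS, were however centred 355 bp from the TSS of Dll4 and 794 bp from that of Tcf7l2. Hes6 had the highest score of the Notch list in LSD1(OE) and was denser there, 2.02 against 2.46 (log2 0.28, 0.06 to 0.51), while the median of the 19 Notch genes with both peaks was -0.15. The intracellular Wnt regulators Apc, Axin1 and Gsk3b were less dense in LSD1(OE), with log2 differences of -0.74, -0.75 and -0.67, the lowest of the 20 Wnt genes with both peaks. The median of these 20 was -0.18, beside -0.29 at all promoter sites, so Wnt genes were not less dense as a list than promoter sites at large. Of 30 neuronal genes, which Lsd1 is known to restrain with REST in other cells, 17 (56.7%, against 40.5% of all genes) and 12 (against 32.3% of all genes) had a promoter peak, with Syn2, Stmn2, Grin1, Gria2, Syt1 and Syt4 myogenic only and Scg3 LSD1(OE) only. LSD1(OE) had a promoter peak at 64.7% of the neuronal genes with a myogenic one, near the 69.6% over all genes.

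Ribosomal protein genes also had fewer promoter peaks in LSD1(OE). Of 36 cytosolic ribosomal protein genes, 27 (75.0%, against 40.5% of all genes) had a promoter peak in the myogenic library and 17 (47.2%, against 32.3%) in LSD1(OE), with 12 (among them Rpl7a, Rpl13a, Rpl19, Rpl22, Rplp0, Rplp1, Rps6, Rps9, Rps14, Rps16 and Rps19) myogenic only and Rps2 and Rps18 LSD1(OE) only. Of these, Rpl7a, Rps2 and Rps18 had a peak of the other library centred 92, 49 and 201 bp from the TSS and assigned to a neighbour. With a score of at least 100 the counts were 24 and 11, and wild-type cells in adipogenic medium had 11 without that limit. LSD1(OE) had a promoter peak at 55.6% of the ribosomal protein genes with a myogenic one, against 69.6% over all genes. At the 15 with both, the median log2 difference was -0.39, beside -0.29 at all promoter sites, and 14 were less dense in LSD1(OE), as were 84.3% of all promoter sites. Of 34 cell cycle genes, 26 (76.5%, against 40.5% of all genes) and 21 (61.8%, against 32.3%) had a promoter peak. LSD1(OE) had one at 69.2% of those with a myogenic one, near the 69.6% of all genes. Ccna2, Cdk1, Cdk6, Rbl2, Myc, Mcm2, Aurka and Trp53 were myogenic only, Ccnb1, Ccnd2 and Ccne1 LSD1(OE) only. At Myc, an LSD1(OE) peak of 16675 bp covered the TSS but was centred 2577 bp downstream of it, outside the window, and LSD1(OE) peaks were centred 549 bp from the TSS of Cdk6 and 993 bp from that of Trp53. Which list had the widest gap depended on the peaks taken. With a score of at least 100, the counts were 16 and 8 of 42 for contractile, 24 and 11 of 36 for ribosomal protein and 23 and 14 of 34 for cell cycle genes, and with ChIP tags not scaled up they were 16 and 8, 24 and 12, and 23 and 16. Fewer of all genes had a promoter peak under these limits too, so the 40.5% and 32.3% of the full lists do not apply to these counts. With a score of at least 100, 5629 of all genes had one in both libraries, 3360 in the myogenic library only and 847 in LSD1(OE) only. With tags not scaled up these were 5817, 3292 and 881.

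At sites with peaks of both libraries, Lsd1 tags were less dense in LSD1(OE), and more so at promoters. The median density of 7863 promoter sites was 1.59 in the myogenic library and 1.28 in LSD1(OE), where a genome without peaks would give 0.535. The median log2 difference was -0.29, and 84.3% of sites were less dense in LSD1(OE). At 10707 distal sites the medians were 1.33 and 1.21, the median log2 difference -0.12 and the share less dense 67.1%. A difference of at least 1.5-fold was found at 13.9% of promoter sites towards the myogenic library and at 0.178%, or 14 sites, towards LSD1(OE), and at distal sites at 5.26% and 0.831%, or 89 sites. When densities were scaled to the tags inside peaks, instead of all filtered ChIP tags, every log2 difference rose by 0.43 and the medians became 0.14 and 0.32, so that the direction depended on the scaling. The gap between promoter and distal sites cannot change under this scaling, which adds the same amount to every site.

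**Figure D3:**
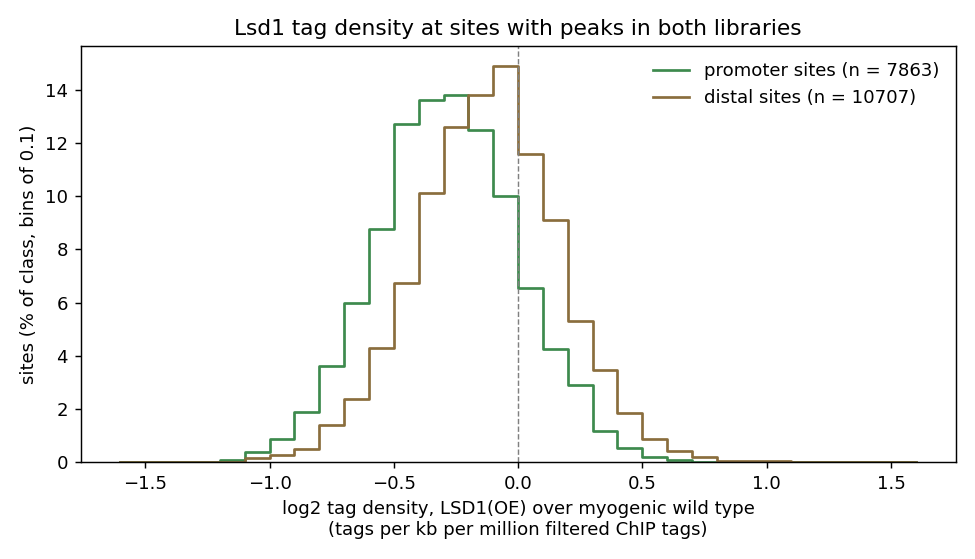
Distribution of the log2 difference in Lsd1 tag density, LSD1(OE) over myogenic (x axis), as a share of sites in bins of 0.1 (%, y axis), for 7863 promoter sites (green) and 10707 distal sites (brown) with peaks of both libraries. The promoter sites centre at -0.29 and the distal sites at -0.12, and scaled to the tags inside peaks both distributions would shift to the right by 0.43, past 0.

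The promoter sites were also shorter. Their median called length was 1476 bp in the myogenic library and 1275 bp in LSD1(OE), a median log2 difference of -0.16 with 65.0% of sites shorter in LSD1(OE). Distal sites were 1164 and 1150 bp long, with a median log2 difference of 0.01. The lower density in LSD1(OE) was found at all strengths, with median log2 differences at promoter sites of -0.12 in the weakest class (geometric mean score under 100) and -0.28 in the strongest (400 or more), and at distal sites of -0.08 and -0.11. Broad peaks of 3000 bp or more were few, 2.06% of the myogenic and 2.76% of the LSD1(OE) peaks. Of the 3 longest myogenic peaks, that of 15016 bp at Plec, the gene of the cytoskeletal linker plectin, overlapped an LSD1(OE) peak, while those near Erdr1 (26156 bp) and near the Y RNA gene Rny3 (14085 bp) did not. The longest LSD1(OE) peaks were at the histone gene H2ac8 (16710 bp), at Myc and near Erdr1 (15556 bp). RefSeq places copies of Erdr1 on both sex chromosomes, and the myogenic peak was listed on the X and the LSD1(OE) peak on the Y, so that neither can be assigned with certainty.

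Among sites denser in LSD1(OE), those with the largest differences are named here, 5 at promoters and 5 distal. With scores of at least 200 in both libraries, the largest promoter differences were at Gm2102 (183 and 381 tags, densities of 1.61 and 2.69, log2 0.74), the secretory membrane gene Scamp2 (101 and 216 tags, 1.55 and 2.57, 0.74), Lif, the leukaemia inhibitory factor gene (70 and 201 tags, 1.55 and 2.43, 0.65), Notum, which encodes a Wnt deacylase (175 and 400 tags, 1.44 and 2.22, 0.62), and Gm14321 (206 and 546 tags, 1.44 and 2.17, 0.60). At distal sites they were nearest to Lingo1 (65 and 156 tags, 0.85), F630040K05Rik (143 and 327 tags, 0.74), Zfp568 (202 and 450 tags, 0.73), Dhx9 (72 and 307 tags, 0.71) and Crispld2 (75 and 327 tags, 0.69). All 10 counting intervals lay above 0.

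The sites denser in the myogenic library were led by genes of small nuclear RNAs. The 5 promoter sites with the largest differences were those of Rnu12 (321 and 183 tags, densities of 3.52 and 1.55, log2 -1.18), Rnu3a (401 and 131 tags, 2.73 and 1.27, -1.10), D230017M19Rik (266 and 112 tags, 3.00 and 1.44, -1.06), Rnu11 (371 and 256 tags, 3.83 and 1.88, -1.03) and Dgat1. The 5 distal sites were a pair of sites nearest to Eapp (-1.12 and -1.03), those nearest to 2900026A02Rik (-1.09) and Rdm1 (-1.09), and a site upstream of Rnu2-10 (-1.01). The Rdm1 and Rnu2-10 sites follow each other on chromosome 11.

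U RNAs are the RNA parts of the spliceosome, and U3 is a small nucleolar RNA that serves the processing of ribosomal RNA. They were therefore looked at as a family, chosen after the values above had been seen. Of 15 annotated Rnu genes, 11 had a promoter site with peaks of both libraries, and all 11 were less dense in LSD1(OE), 10 of them by at least 1.5-fold, which 13.9% of all promoter sites were. The median log2 difference was -0.94 against -0.29 over all promoter sites. Scaled to the tags inside peaks, each value is higher by 0.43, and 10 of the 11 stay negative. These are not 11 independent sites. Rnu1a1, Rnu3b1, Rnu3b2, Rnu3b3 and Rnu3b4 lie together at chr11:87422237-87472603, and Rnu12, Rnu3a and Rnu11, which led to the choice of the family, are counted among the 11. Among spliceosomal genes, Rnu1a1 had 275 and 113 tags (densities of 3.32 and 1.64), Rnu2-10 401 and 211 tags (3.99 and 1.98) and Rnu5g 248 and 154 tags (2.06 and 1.19). The exception was Rnu1b6, with 29 and 45 tags and a log2 difference of -0.17 (-0.87 to 0.56).

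The 5 U3 genes had log2 differences from -1.10 (Rnu3a) to -0.71 (Rnu3b2). The 7SL RNA genes Rn7s1 and Rn7s2, which serve the signal recognition particle, had nearly equal densities, 1.49 and 1.42 for Rn7s1 (-0.07, -0.51 to 0.37) and 1.61 and 1.49 for Rn7s2 (-0.11, -0.56 to 0.34). Rpph1, the RNA of ribonuclease P, had 97 and 32 tags (1.77 and 1.08, -0.71, -1.33 to -0.12). These genes have near-identical copies in the genome, and the study's methods state the use of unique mapping positions for its intensity profiles but not for the tags counted in peaks, so that values of single copies are uncertain.

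**Figure D4:**
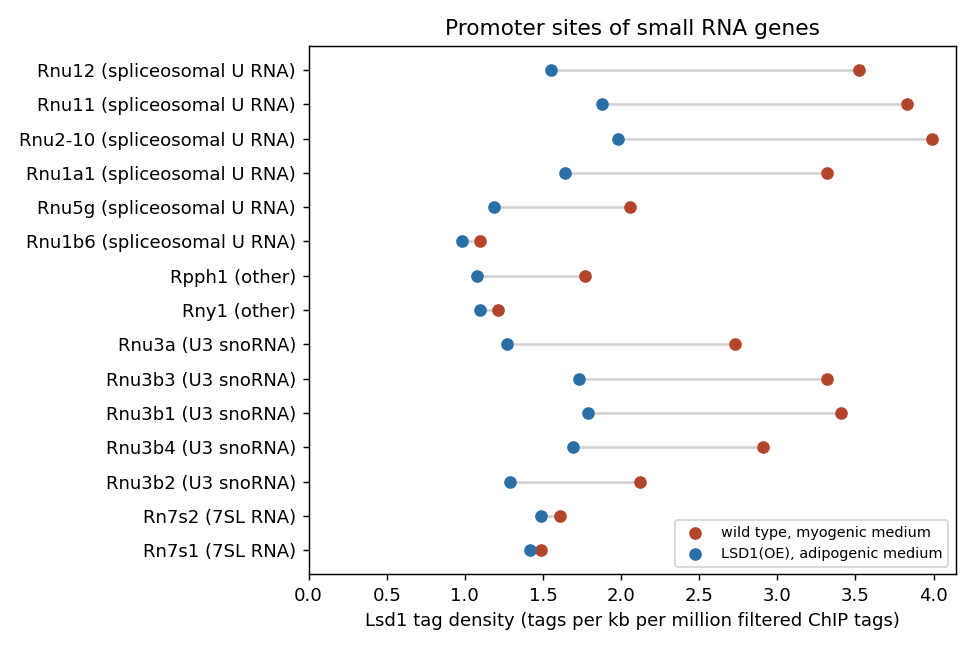
Lsd1 tag density (x axis, tags per kb per 1000000 filtered ChIP tags) at promoter sites of small RNA genes (y axis) in the myogenic library (red) and LSD1(OE) (blue), 1 library each. The 11 Rnu genes are less dense in LSD1(OE), 10 of them by at least 1.5-fold, and Rn7s1, Rn7s2 and Rny1 have nearly equal values. Scaled to the tags inside peaks, Rnu1b6, Rn7s1, Rn7s2 and Rny1 would be denser in LSD1(OE).

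Motif letters around summits of private distal peaks were more frequent in LSD1(OE) for C/EBP and more frequent in the myogenic library for AP-1, RUNX, MEF2, the E-box and TEAD. The 20 motifs of 6 to 9 letters were searched on both strands of the 200 bp around each summit, and a match is a description of sequence, not a bound site. The C/EBP letters TTGCNNAA were present in 10.8% of private LSD1(OE) windows (10.3 to 11.4%) and 7.58% of private myogenic windows (7.21 to 7.96%), a difference of 3.26 points (counting interval 2.59 to 3.93). In distal peaks common to both libraries the share was 8.20% and 8.30%, over all 76959 peaks 7.55%, and in windows of the same length 2000 bp to either side of distal peaks 7.84%. The C/EBP letters were thus above the flanks in private LSD1(OE) peaks and at the level of the flanks in private myogenic peaks.

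The C/EBP share of private distal LSD1(OE) peaks grew with their score, from 9.80% between 50 and 100 to 12.6%, 13.8% and, at 400 or more, 21.1% (37 of 175 peaks, 15.7 to 27.8%). In the private myogenic peaks it was 7.91%, 7.43%, 5.59% and 5.40% in the same classes. Private LSD1(OE) peaks that overlapped a wild-type adipogenic peak had the letters in 13.4% (11.7 to 15.2%) and the others in 10.5% (9.91 to 11.1%), while private myogenic peaks had them in 7.33% and 7.61%.

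TEAD factors act downstream of Hippo signalling and bind many muscle promoters. Their letters ACATTCC went the other way, with 2.95% of private distal LSD1(OE) windows (2.66 to 3.26%) and 4.16% of private myogenic windows (3.89 to 4.45%), where common distal peaks had 3.98% to 4.00%, the flanks of distal peaks 2.86% and all peaks 3.22%. The AP-1 letters were found in 12.1% and 15.3% (difference -3.19 points, -3.96 to -2.42), and the E-box in 17.2% and 19.0% (-1.74, -2.61 to -0.864). Both were far above the flanks of distal peaks (6.21% for AP-1 and 10.1% for the E-box) in either class, and most frequent in the common distal peaks, at 20.1% to 20.8% for AP-1 and 24.8% to 25.5% for the E-box. The RUNX letters TGTGGT (18.2% and 20.5%, with 15.7% in the flanks and 17.1% in all peaks) and the MEF2 letters (16.0% and 18.1%, with 20.9% in the flanks and 13.3% in all peaks) were also more frequent in the private myogenic class.

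Other motifs of the adipogenic programme and of the hormones in the cocktail differed less. The glucocorticoid response element ACANNNTGT was present in 6.73% of private LSD1(OE) and 6.38% of private myogenic distal windows, a difference of 0.358 points with an interval from -0.207 to 0.922, beside 6.42% in the flanks of distal peaks and 5.09% in all peaks. The direct repeat GGNCANAGG bound by PPARs was present in 6.63% and 5.89% (difference 0.738, 0.183 to 1.29), beside 5.48% in those flanks and 6.56% in all peaks. The cAMP response element TGACGTCA differed by 0.0263 points (-0.0803 to 0.133).

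**Figure D5:**
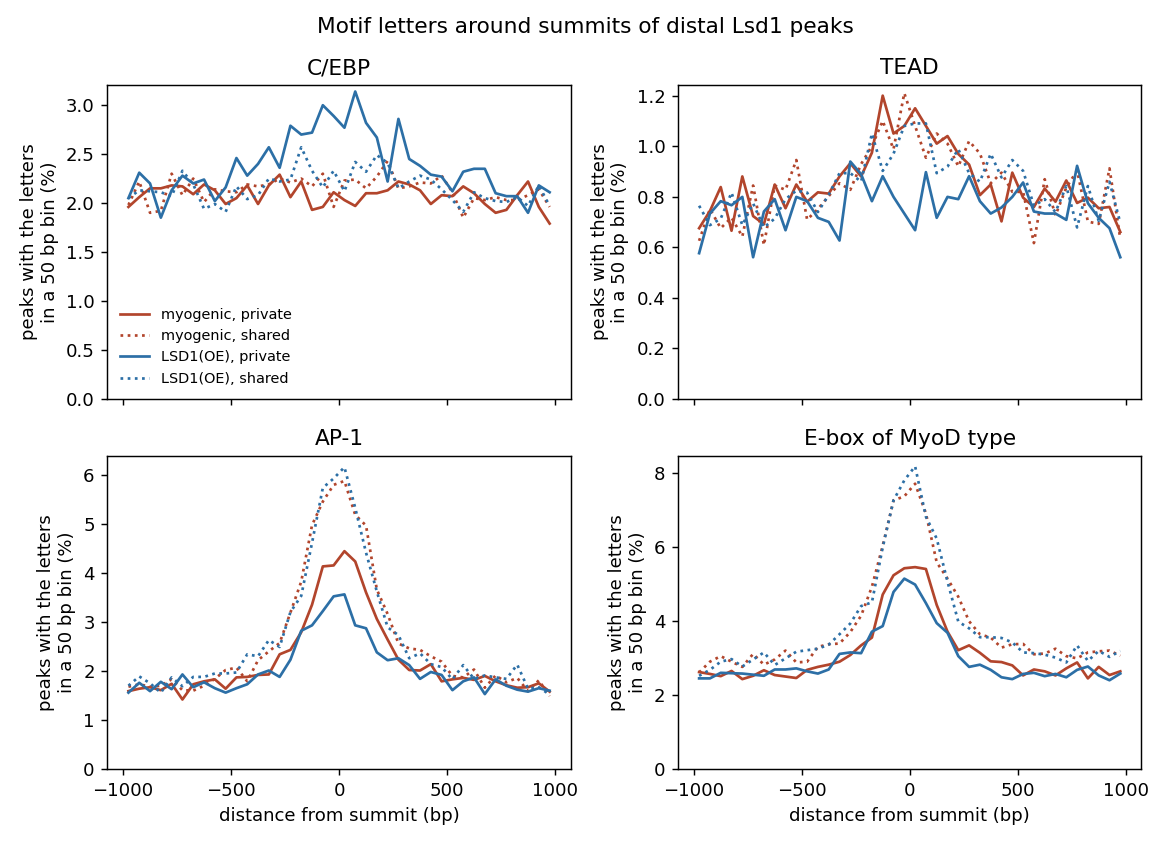
Share of distal Lsd1 peaks with the letters of a motif in bins of 50 bp (%, y axis) by distance from the summit (bp, x axis), for private (solid) and common (dotted, labelled shared) peaks of the myogenic library (red) and LSD1(OE) (blue). C/EBP letters crest around the summit in private LSD1(OE) peaks, at 3.14% in the bin from 50 to 100 bp against 1.97% in private myogenic peaks, whereas AP-1 and the E-box crest in every class.

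Along the genome, the myogenic library had more peaks than LSD1(OE) on every chromosome except chromosome 12, where LSD1(OE) had 1401 and the myogenic library 1333. Chromosome 15 was the densest in both, with 35.9 peaks per Mb in the myogenic library and 27.4 in LSD1(OE), and it carries Mb, Pvt1, Kmt2d, Myc and Rnu12 among the genes named above. Its genes had promoter peaks in 54.3% and 50.5%. The X chromosome was the sparsest chromosome besides the Y, with 2.53 and 1.51 peaks per Mb, and 27.3% of its myogenic peaks overlapped an LSD1(OE) peak. The number of copies of each chromosome in these cells was not measured here, and its part in these counts was not tested.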

How the data were processed

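Lsd1 ChIP-seq was performed in C2C12 cells with 1 ChIP and 1 input library per condition. The authors mapped 50 bp reads to mm10 with Bowtie and called peaks with MACS (1.4.2 per the file headers, 1.41 in the submitters' processing notes, which name Bowtie2) at a p-value of 1e-05, against the input of the same condition and with the ChIP tags scaled up to the input 1.9-fold (myogenic) and 1.82-fold (LSD1(OE)). Duplicates were limited to 2 tags per position in the ChIP and 3 in the input. The deposited tables give for each peak the count of ChIP tags after this filter, not normalised. They also give a score, which the authors' caller computed as 10 times −log10 of the peak p-value. The fold enrichment over local background and the false discovery rate in percent were likewise deposited as the caller wrote them. Fold enrichment was not used, and the false discovery rate served only as an alternative threshold.

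Peaks were intersected (minimum 1 bp) and assigned by their centre to the nearest of 31647 TSS-gene pairs of curated RefSeq transcripts (26180 genes). Densities were computed per kb of called length and per 1000000 filtered ChIP tags, over all peaks of each library at a site. Shares carry Wilson intervals, differences of shares normal-approximation intervals, and ratios of tag counts exact binomial intervals, all at 95% and for counting error only. Motif letters were searched on both strands of the genome with Python 3.11.15, NumPy 2.4.6, pandas 2.3.3, SciPy 1.17.1 and pysam 0.24.0, and plots were drawn with Matplotlib 3.10.9. Scripts were tested on simulated data.

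The genes named were those of the lists with a promoter peak in 1 library only or the highest score, the 8 private promoter and 5 private distal peaks of highest score, the 5 sites of each class with the largest density difference each way (scores of at least 200), the 3 longest peaks and the genes the study names. Other genes of the lists that are named, with their densities, and the small RNA genes were chosen after their values were seen. All lists and members were chosen with earlier results of these data known. A few genes that these rules select are not reported here.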

Additional observations from a re-analysis of the deposited data

How the results depend on the processing

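No paired analysis was possible because each condition has 1 library. Other peak lists, windows and scalings moved 51 of the recomputed summary values, reversed 3 and left 50 within their counting error or 1.5 times. The overlap of myogenic peaks was 54.9% at equal numbers, 53.2% with a score of at least 100, 49.6% with a false discovery rate of at most 0.1%, 53.9% with ChIP tags not scaled up, 35.2% when 50% of both peaks had to overlap and 36.7% for summits within 500 bp, and that of LSD1(OE) peaks 55.6%, 68.9%, 72.8%, 67.9%, 45.6% and 47.5%. The promoter share of myogenic peaks was 33.5%, 40.0%, 40.8% and 39.4% under the first 4 of these, 24.6% with a window of 1000 bp and 37.0% with 5000 bp. For LSD1(OE) it was 37.3%, 39.3%, 36.5% (score, false discovery rate, tags not scaled up), 24.9% and 37.3%. Genes with an LSD1(OE) promoter peak only were 707 at the stricter false discovery rate. Median lengths were 1078 bp (myogenic, equal numbers), 1256 bp and 1285 bp (score of at least 100).

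The median log2 density difference reversed when scaled to the tags in peaks, to 0.14 at promoter and 0.32 at distal sites, where 0.369% and 0.131% of sites were 1.5-fold denser in the myogenic library and 6.55% and 15.9% in LSD1(OE). By construction this scaling adds the same amount to every site. Over the merged region the medians were -0.46 and -0.10, with 42.1% and 27.2% denser in the myogenic library and 5.72% and 19.3% in LSD1(OE). They were -0.30 and -0.15 at equal numbers and -0.28 and -0.12 with a score of at least 100, where 0.548% of distal sites were denser in LSD1(OE). With 1 peak of each library 0.114% of promoter sites were. The length difference was -0.13 at promoters (score of at least 100) and reversed to -0.04 at distal sites (equal numbers).

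The motif differences, LSD1(OE) minus myogenic in points, were -2.76 for the E-box and -4.33 for AP-1 at equal numbers, -4.15 for AP-1, 5.15 for C/EBP and -2.11 for TEAD in windows of 400 bp, and 9.59 for C/EBP and -2.53 for TEAD at a score of at least 200. The differences of these 4 motifs kept their sign in every alternative run, but at a score of at least 200 the interval of the E-box difference, -2.19, reached from -5.52 to 1.15. Of the recomputed counts of the gene lists, 130 stayed within 1.5 times of the reported count and 2 did not, ribosomal protein genes in LSD1(OE) with a score of at least 100 (11) and unrelated lineages in LSD1(OE) with a window of 1000 bp (0).

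With 1 library per condition, the spread between cultures is unknown for all values. The cause of the changes listed here was not tested beyond what is stated.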
